A study of Mus musculus with 6 samples.

Results

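The genes described here encode the proteins of the cytosolic ribosome. They were chosen by symbol alone, as every row of the promoter table whose symbol follows the Rpl, Rps, Rplp or Rpsa pattern with at most 1 letter a, l, x or y after the number. The choice gave 79 of 49366 promoter windows, 49 of the large subunit and 30 of the small subunit. Of these genes, 76 are annotated as protein-coding and 3 as pseudogenes, Rpl6l, Rpl32l and Rps4l. The annotation holds 83 genes with such a symbol, and the 4 without a row, Rpl4, Rpl12, Rps2 and Rps13, were not analysed here.

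Nuclei were sorted for PCM1, a protein at the surface of muscle fibre nuclei, and profiled by ATAC-seq, which reads out open chromatin through the insertion of adapters by a transposase. Male C57BL/6J mice, 8 weeks old at injection, received AAV6:Yap-shRNA in the gastrocnemius and tibialis anterior muscles of one side and AAV6:LacZ-shRNA, the control hairpin, in those of the other, and tissue was taken 28 days later. Each group had 3 replicates, each a pool of 4 gastrocnemius and 4 tibialis anterior muscles. Both groups were wild-type animals that carried AAV6 and a hairpin, so neither is an uninjected muscle, and a pool hides the spread between animals. A hairpin acts on RNA, so the promoter counts hold no direct measure of the knockdown. Which muscle pools came from the same animals is not given in the labels.

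Ribosomal proteins (RPs) assemble with ribosomal RNA into the small subunit, which reads the mRNA, and the large subunit, which forms peptide bonds. In most mammalian cells their genes are among the most strongly transcribed, and their mRNAs begin at a C inside a tract of C and T, the terminal oligopyrimidine (TOP) motif, through which mTOR and LARP1 control their translation. Many RP genes carry small nucleolar RNAs (snoRNAs) in their introns, and a few have tissue-restricted copies, of which Rpl3l in striated muscle is the best known. Yap is a coactivator of the Hippo pathway that acts with TEAD factors. The comparison asks whether the promoters of this housekeeping class changed in accessibility when Yap was lowered in muscle fibres.

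A promoter window here joins the 1 kb before and the 1 kb after all annotated transcript starts of a gene, and its level is given as normalised CPM (counts scaled to library size) or, wherever genes are compared, as CPM per kb of window. Window totals per library ran from 3326803 to 10319467 counts, and the RP windows took 0.166% to 0.198% of them. The median RP window held 74 to 198 counts per library. Windows of several muscle fibre genes stood at the top of the range, with Tnni2, a fast-fibre troponin, at 58.3 and Ckm, the muscle creatine kinase, at 44.3 CPM per kb in the controls, though the myosin gene Myh1 was at 4.27. Leukocyte, fibroblast, endothelial and satellite cell markers had median levels of 5.55, 3.98, 4.97 and 7.29 CPM per kb over windows with no overlap, and no marker was at 0 in any library. The median over all windows was 4.50 CPM per kb.

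A tract of C and T over the annotated start, the sequence feature of TOP mRNAs, was present in part of the RP promoters. RefSeq promoters on GRCm38.p6 were found for 57 of the 79 genes, 69 promoters in all, each reaching from 250 bases before a start to 50 after it. A run of at least 5 C or T covered the start in 30.4% of RP promoters, in 10.1% of all 32851 promoters and in 4.17% of 72 promoters of mitochondrial RP genes (Mrpl and Mrps symbols). The first base was C in 29.0%, 16.3% and 13.9% of them. RefSeq starts need not be the starts used in muscle, so these shares describe the annotation. The following 30-base stretches hold 14 bases before the annotated start, the start and 15 bases after it, on the sense strand, with the tract in capitals, and they are shown as clear cases of the tract.

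Rps6 (chr4:86857352-86857381, minus strand): agcggaagtcgggCCTCTTTTTCgtgacgc
Rplp2 (chr7:141447637-141447666, plus strand): gcgtcagcgTCTTCCTTTCgccgccggacg
Rpl7a (chr2:26910793-26910822, plus strand): TTCCCTCTTCTTTCTTTCTCCagcagccga
Rps27 (chr3:90213633-90213662, minus strand): tttccgctttcgCTCCTTTCCggcggtgac
Rps18 (chr17:33955650-33955679, minus strand): acgtcacttccgCTCTCTCTTCCacaggag
Rpl28 (chr7:4792951-4792980, plus strand): cgcctctcgtgTCTCTCTTTCCgtctccgg
Rpl27a (chr7:109519181-109519210, plus strand): acttcgtgagCTCCTCCCTTTTCCCTTTCT
Rpl35 (chr2:39005116-39005145, minus strand): ggccccgCCCTTTCCTCTTTCTCTCgaacc
Rpl34 (chr3:130730322-130730351, minus strand): CTTCCTTTTCCTCTTCCggggacggtgctc

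Rps6 is the small-subunit protein phosphorylated downstream of mTOR, and Rplp2 is a stalk protein of the large subunit. In each of these 9 sequences the tract covered the annotated start. The next sequences are RP genes described below whose annotated start lay in no tract of at least 5 bases, with a longest run of C or T inside the printed stretch in capitals.

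Rplp0 (chr5:115559453-115559482, plus strand): tcttcgggtttcgaggaccgcctggTTCTC
Rps23 (chr13:90923108-90923137, plus strand): ccttcggctgggcggggCTTCCCgcaatgc
Rpl10l (chr12:66284386-66284415, minus strand): ttggCCTCCattttgcggctggcggtgggc
Rps4x (chrX:102189376-102189405, minus strand): tgaggctgggcggagcaacccaggCTCCag
Rpl3l (chr17:24727812-24727841, plus strand): agtgttctagctctgtcatttgaCCTCTgg
Rpl3l (chr17:24732671-24732700, plus strand): tcatcaacagctacagtgCCCCaaatgtcc

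Rplp0, the base of the ribosomal stalk, and Rps23, a protein of the decoding centre, began outside such a tract. Rpl3l, Rpl10l and Rps4x did as well. The promoters of Rpl3l were also the poorest in CpG of the 69. They held CpG at 0.0892 and 0.134 of the number that their C and G content would give, against a median of 0.862 over RP promoters and 0.384 over all.

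Motif matches were counted on both strands over the same 300 bases, with shares given for RP promoters, mitochondrial RP promoters and all promoters in that order. The ETS string CCGGAAG was in 36.2%, 31.9% and 8.86%, and the YY1 string ATGGCGG in 17.4%, 16.7% and 4.05%. The GGGCGG of Sp factors was in 56.5%, 51.4% and 35.7%. RP promoters and mitochondrial RP promoters thus held these strings at similar shares. The CGCGAGA box of BANP and ZBTB33 was in 15.9%, 8.33% and 2.56%, and the NRF1 string GCGCATG in 13.0%, 9.72% and 3.91%. TATAAA was in 8.70%, 6.94% and 13.6%, CACGTG in 11.6%, 8.33% and 7.15%, and CCAAT in 31.9%, 40.3% and 37.4%.

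The TEAD string ACATTCC was in 3 of 69 RP promoters, those of Rpl22, Rps16 and Rps26, which is 4.35% against 3.85% of all promoters. Of the mitochondrial RP promoters, 0 of 72 held it. The E-box CAGCTG of myogenic factors, added after the sequences were seen, was in 5.80% of RP promoters, 16.7% of mitochondrial RP promoters and 16.3% of all. No string contains another on either strand, though neighbouring matches can share end bases. A match is only a match of letters.

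In control muscle, RP windows were mostly higher where they overlapped no other gene's window and mostly lower where they did, with exceptions on both sides. An overlap was present for 44 of 79 RP windows (55.7%), against 21.0% of all windows. Windows of 24 RP genes overlapped a snoRNA gene's window and 17 that of a protein-coding gene. The 35 RP windows without overlap had a median of 11.2 CPM per kb and a median percentile of 93.9 among all windows, and 22 of them were at or above the 90th percentile. The 44 with overlap had a median of 3.01 CPM per kb and a median percentile of 22.0, and 21 of them were below the 20th. Yet 8 of these 44 were at or above the 90th percentile, and 1 of the 35 without overlap was below the 20th. Over all genes the same difference was 4.77 against 3.16 CPM per kb. Taken as 1 group, the 79 RP windows had a median of 5.12 CPM per kb, close to the 4.50 of all windows.

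**Figure D1:**
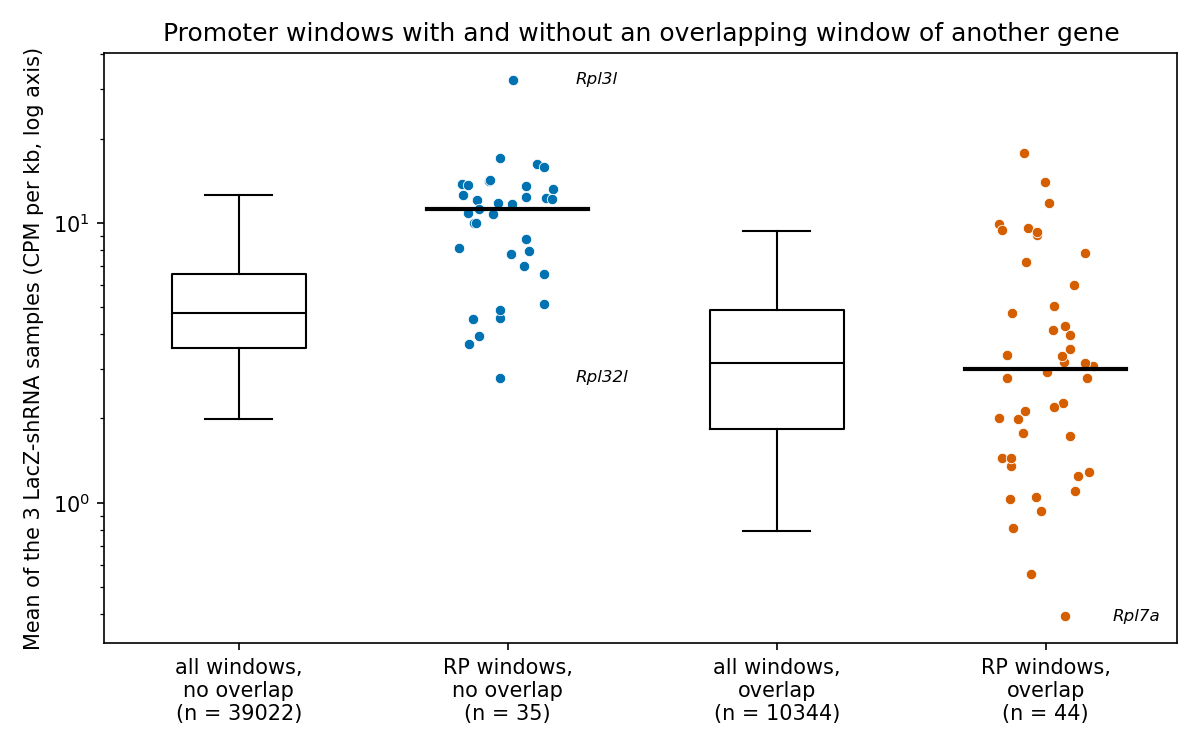
Mean accessibility of the 3 LacZ-shRNA samples in CPM per kb (log axis), for all windows (boxes: quartiles and median; whiskers: 5th to 95th percentile) and for each RP window (points; bar: median), split by overlap with the window of another gene. RP windows without overlap centre on 11.2 and those with overlap on 3.01 CPM per kb, with Rpl3l the highest at 32.4 and Rpl7a the lowest at 0.392.

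Peaks, which are called on the signal and do not depend on gene windows, showed no group of low values like that of the overlapping windows. Only called regions were counted, so one too weak to be called could not appear. The 9 RP genes without a peak are likewise missing. Of the 79 RP genes, 70 had a peak over an annotated start. Their windows touched 74 peaks in all, since Rpl3, Rpl3l, Rpl41 and Rps14 had a pair each, and 72 of these lay over a start. The other 2, the smaller peak of Rpl3 and the larger of Rpl41, lay at least in part in the window but covered none. The gene's 5′ end lay inside 66 of the 74. RP peaks had a median of 33.7 CPM (lowest 10.6, highest 126) against 15.0 over all 36097 peaks, and 70 of 74 were above that median. Their median width was 1155 bases against 902, and per kb the medians were 27.7 and 19.7 CPM. The 21 overlapping RP windows below the 20th percentile all had promoter peaks, with 15.0 to 102 CPM and a median of 32.0.

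The count in a window was then set against the count in the gene's peaks. In the 27 RP genes with a peak and no overlap, the window held a median of 156% of the peak counts, and none held less than 99.97%. Where the window overlapped another but the peak lay outside the shared stretch, as in 5 genes, the median was 116%. Where a peak lay wholly inside the shared stretch, as in 19 genes, the median was 21.3%, with a range of 3.27% to 100.2%. Rpl3 is among these genes by its smaller peak, while 80.9% of its larger peak lay in the shared stretch. Window counts were under 50% of the peak counts in 23 of 43 overlapping RP genes with a peak. The program that counted the reads leaves out, by default, reads that touch 2 features. Whether this default was used for these tables is not stated, and its part in the low windows was not tested. Levels of overlapping RP windows are therefore uncertain.

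**Figure D2:**
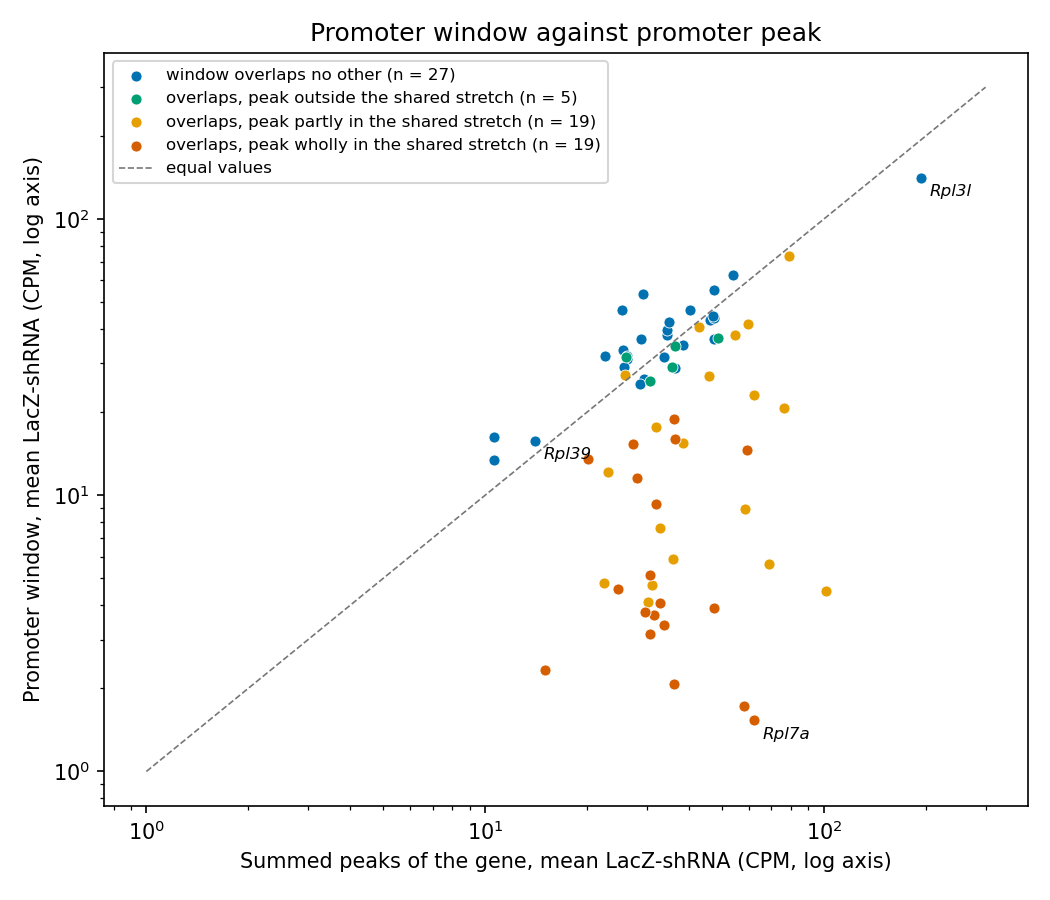
Promoter window against the summed promoter peaks of the same gene for the 70 RP genes with a peak, both as mean LacZ-shRNA CPM on log axes, with CPM taken within each table. Genes without overlap lie near the dashed line of equal values, while those with a peak wholly in a shared stretch reach down to Rpl7a, at 3.27% of its peak counts.

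The lowest RP windows overlapped another gene's window. Rpl7a, a large-subunit protein whose introns hold snoRNAs, had 1.63, 1.60 and 1.37 CPM in the LacZ-shRNA window and 59.4, 60.3 and 66.9 CPM in its peak. For Rps29, a zinc-binding protein of the small subunit, the window held 1.45, 1.92 and 1.82 CPM and the peak 61.3, 54.3 and 58.8. The windows of both genes thus lay near the bottom of the table while their peaks were above the median of all peaks in every control sample. Rpl23a and Rpl30 were also among the lowest, with windows at 0.935 and 1.03 CPM per kb.

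Rpl3l and Rplp0 were among the highest RP windows. Rplp0 held 26.8, 38.1 and 40.0 CPM in the controls (16.2 CPM per kb). Rpl3l was at 32.4 CPM per kb, above every other RP window.

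Rpl3l, the striated-muscle counterpart of the core peptidyl-transferase protein Rpl3, held 116, 162 and 145 CPM in the LacZ-shRNA window and 135, 109 and 123 CPM in the Yap-shRNA window. It was the 140th window of 49366 by CPM per kb, at percentile 99.7. Its gene lies on chromosome 17 from 24727820 to 24736143 on the plus strand, and no other gene's window overlapped its own. The signal came in a pair of peaks, one over the annotated 5′ end from 24727359 to 24729046 and one over an inner transcript start from 24731592 to 24733957. The first held 63.0, 74.3 and 62.9 CPM in the controls. The second held 116, 138 and 125 CPM, 1.89 times the first by their means. Both were far above the median peak in all 6 samples.

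The sequence before the annotated 5′ end of Rpl3l is printed because its window was the highest RP window per kb. The choice was made after its level was seen. That window also holds the inner start, which had the larger peak. The peak over the annotated 5′ end held 39.5 CPM per kb in the controls, below the 45.8 of the Rpl13a peak. The printed sequence comes from the RefSeq table, has 244 bases and ends at the base before the gene's first annotated base. It holds 1 match to the strings searched, the E-box CAGCTG in capitals, 14 bases before that end.

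Rpl3l, upstream (chr17:24727576-24727819, plus strand): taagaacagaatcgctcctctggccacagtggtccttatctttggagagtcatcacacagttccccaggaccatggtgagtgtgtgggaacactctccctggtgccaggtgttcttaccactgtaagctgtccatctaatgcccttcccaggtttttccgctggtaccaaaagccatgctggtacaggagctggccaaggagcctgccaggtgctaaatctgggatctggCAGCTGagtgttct

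The other tissue-restricted or duplicate copies had lower windows. Rpl10l, a testis paralog of Rpl10, held 10.5, 7.37 and 9.68 CPM in the controls (4.59 CPM per kb) and had no peak. Rpl39l, a testis paralog of Rpl39, held 11.6, 6.73 and 10.9 CPM (4.87 CPM per kb) and had no peak either. Rps4l, an annotated pseudogene, held 9.41, 12.5 and 9.68 CPM (5.12 CPM per kb), also without a peak. These 3 windows lay at percentiles 51.6, 56.7 and 60.7 of all windows. Rps27l, a paralog of Rps27, held 35.1, 52.2 and 46.5 CPM (9.96 CPM per kb) and had a peak of 47.1 CPM. Among their partners Rpl10 was at 9.59, Rpl39 at 7.02, Rps4x at 3.68, Rpl3 at 2.13 and Rps27 at 1.45 CPM per kb. The windows of Rpl3, Rpl10 and Rps27 overlap others, so those 3 levels cannot be set against the paralog's. The peaks of Rpl3 held 41.1 and 18.3 CPM and that of Rps27 33.8 CPM in the controls.

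Both subunits had similar levels. Among windows without overlap, the 22 of the large subunit had a median of 10.8 CPM per kb and the 13 of the small subunit 12.3. Mitochondrial RP windows without overlap had a median of 9.11 and proteasome subunit windows 8.79 CPM per kb. Other genes whose mRNAs carry a TOP motif had a median of 9.42 over 8 windows without overlap. The RP median of 11.2 was above these 3 lists. Genes that regulate the translation of TOP mRNAs were higher, with a median of 11.9 over 7 windows without overlap. No test was made of these differences. Eef1a2, the elongation factor used in mature muscle, reached 37.9 CPM per kb, close to Rpl3l, while Eef1a1, the form used in most tissues, was at 5.12 in a window that overlaps another.

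Yap-shRNA was then compared with LacZ-shRNA by edgeR's quasi-likelihood test over all windows, with Benjamini-Hochberg adjustment at 0.05. No RP window passed (0 of 79), where 0.0223% of all windows passed. At an unadjusted p under 0.05 edgeR gave 2 RP windows, which is 2.53% against 4.9% of all windows. They were 1 lower and 1 higher, where 3.01% of all windows were lower and 1.9% higher at that p. DESeq2 also called none, where 0.18% of the windows given an adjusted p passed. It gave no adjusted p for 41 of the 79, and had 1 at an unadjusted p under 0.05, against 2.62% of all windows. The 3 values of one group lay wholly above the other in 4 RP windows, which is 5.06% against 10.1% of all windows (4.79% lower and 5.31% higher). These were Rps23, Rps25 and Rps19 on the lower side and Rpl32 on the higher side, with Rps19 named after its values were seen (-0.11, SE 0.13). Both shares were below the background. In pooled nuclei, a change in every nucleus and a change in the mix of nuclei cannot be told apart.

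The changes of RP windows were centred near 0. The median log2 fold change was 0.0070 against -0.014 over all windows, with 41 RP windows above 0 and 38 below. Single values ran from -0.47 to 0.51, and 60 of 79 were within 0.2 of 0. The standard error (SE) had a median of 0.16, so the 95% interval lay within -0.5 to 0.5 for 48 windows, 30 of them among the 35 without overlap, and within -1 to 1 for 73. In simulated libraries like these, edgeR recovered 84.5% of windows changed by 1 on the log2 scale and 8.5% of those changed by 0.5. The changed windows were drawn from those with a mean count of at least 50, which 61 of the 79 RP windows had. These shares do not cover RP windows with fewer counts. A change of the smaller size in a single RP window would thus mostly have been missed.

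**Figure D3:**
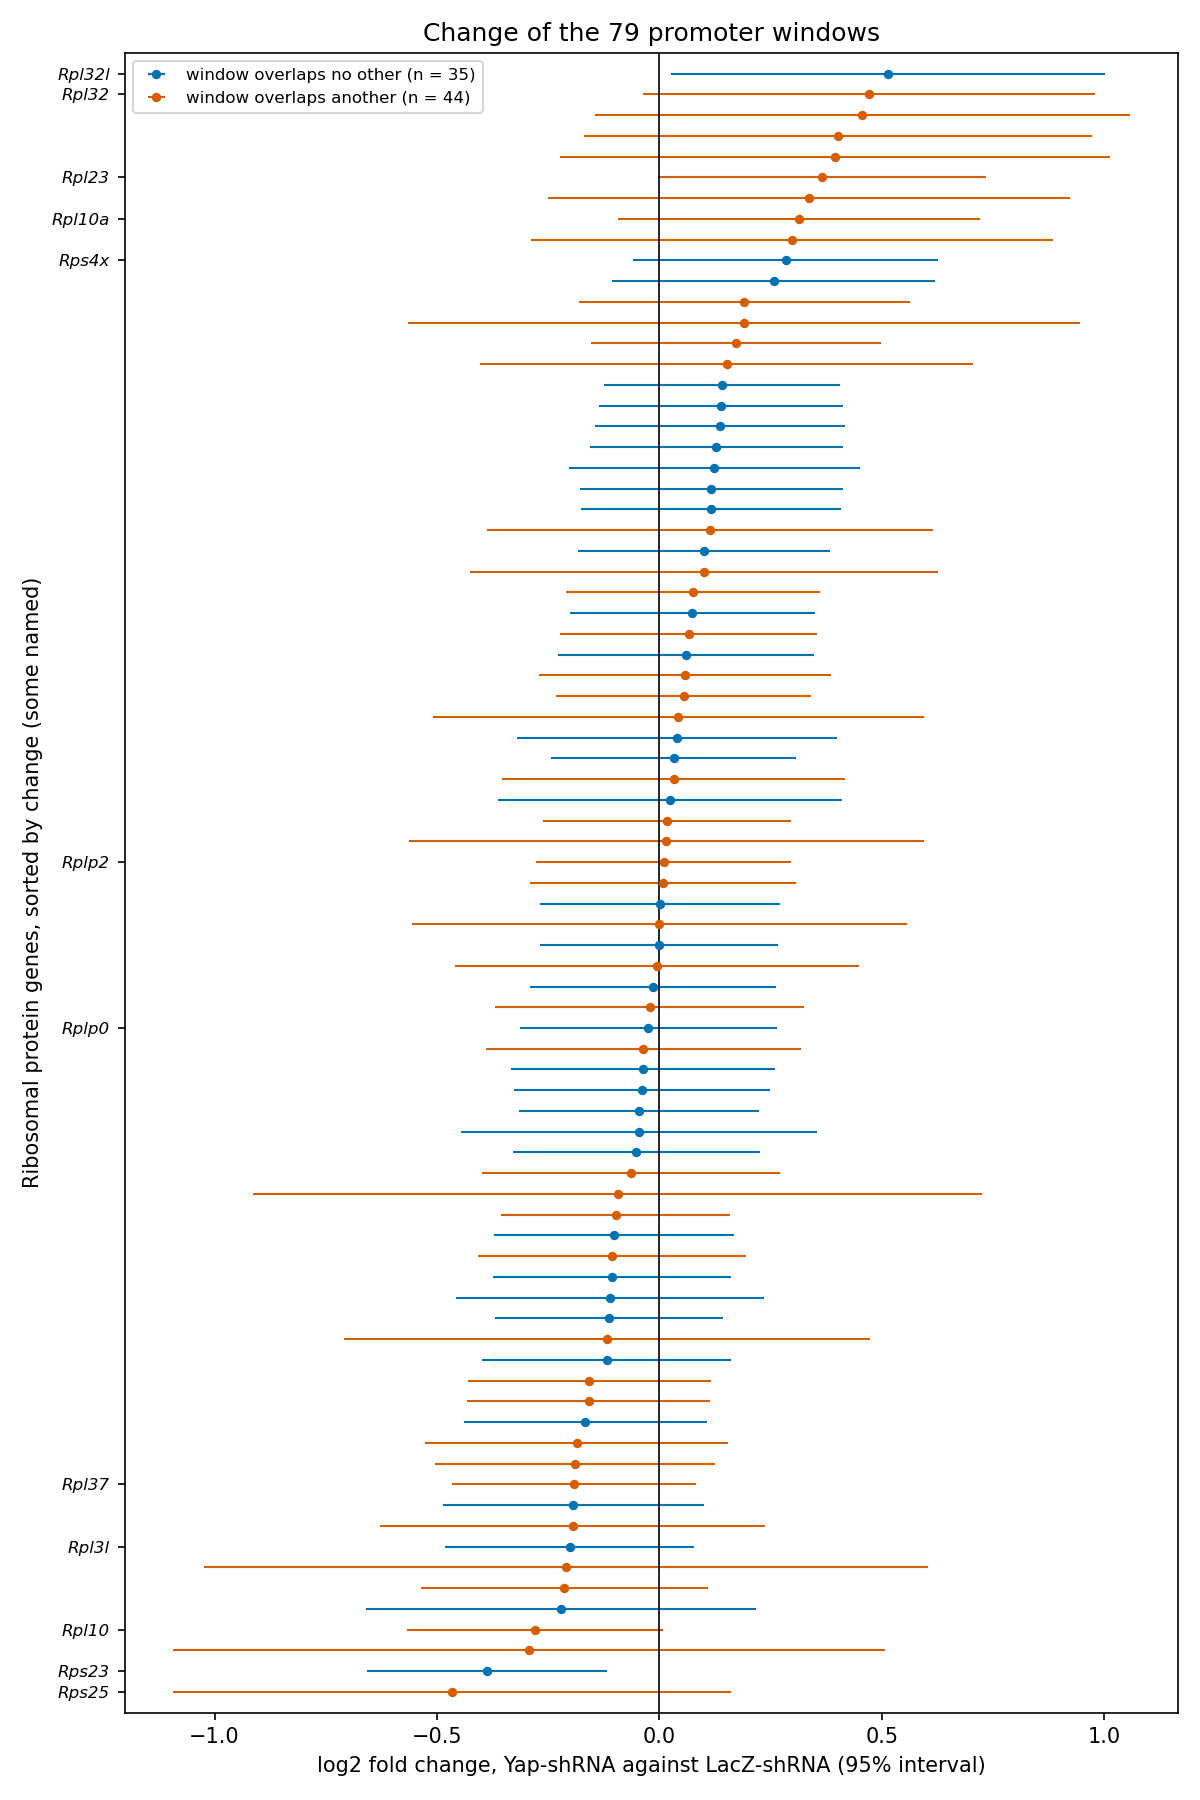
log2 fold change of the 79 RP windows, Yap-shRNA against LacZ-shRNA, sorted by value with 12 of them named, with 95% intervals as bars and colour for overlap with another gene's window. The values spread from -0.47 to 0.51 around a median of 0.0070, and the widest intervals belong to overlapping windows with few counts.

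Rps23 had the smallest p. Its window held 39.6, 47.4 and 44.9 CPM under LacZ-shRNA and 30.5, 33.1 and 37.0 CPM under Yap-shRNA. Every Yap-shRNA value was below every LacZ-shRNA value. The log2 fold change was -0.39 (SE 0.14, edgeR p 0.00761, adjusted p 0.946). Its gene lies on chromosome 13 from 90922958 to 90924950 on the plus strand. The annotated start in the sequence printed above lay in no tract of at least 5 C or T.

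The next 4 on the lower side were Rpl10, Rps25, Rpl3l and Rpl37. Rpl10, a large-subunit protein near the tRNA sites, held 25.5, 29.2 and 32.4 CPM in LacZ-shRNA and 26.1, 21.5 and 24.6 CPM in Yap-shRNA. The groups overlapped, with an estimated change of -0.28 on the log2 scale (SE 0.15, edgeR adjusted p 0.946). Rps25, a protein used in internal ribosome entry, held 4.52, 3.52 and 3.65 CPM against 3.26, 2.05 and 3.25 CPM. The groups did not overlap, but at few counts in a window shared with Trappc4 (-0.47, SE 0.32). The Rps25 peak, wholly inside the shared stretch, was at 0.08 (SE 0.12), with overlap between the groups. For Rpl3l the groups overlapped too (-0.20, SE 0.14, edgeR adjusted p 0.949). Rpl37 held 31.7, 40.1 and 39.5 CPM against 33.6, 34.0 and 29.4 CPM, again with overlap (-0.19, SE 0.14).

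The 5 windows with the smallest p on the higher side were Rpl32l, Rpl23, Rpl32, Rps4x and Rpl10a, in that order. Rpl32l is an annotated pseudogene on chromosome 10, and held 4.70, 6.73 and 5.35 CPM in LacZ-shRNA and 9.27, 6.70 and 7.42 CPM in Yap-shRNA. The groups overlapped by 1 sample (log2 fold change 0.51, SE 0.25, edgeR p 0.0458, adjusted p 0.946). Rpl32, the intact gene, held 5.07, 3.52 and 5.81 CPM against 6.21, 6.89 and 7.88 CPM, with no overlap between groups (0.47, SE 0.26). That window overlaps the one of Snora7a, and the Rpl32 peak was at 0.09 (SE 0.17), with overlap between the groups. Reads from a processed copy and its parent can be hard to tell apart within exons, and mapping quality filters are not given for this table. Rpl23 (0.37, SE 0.19), Rps4x (0.28, SE 0.17) and Rpl10a (0.31, SE 0.21) each had overlap between the groups.

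**Figure D4:**
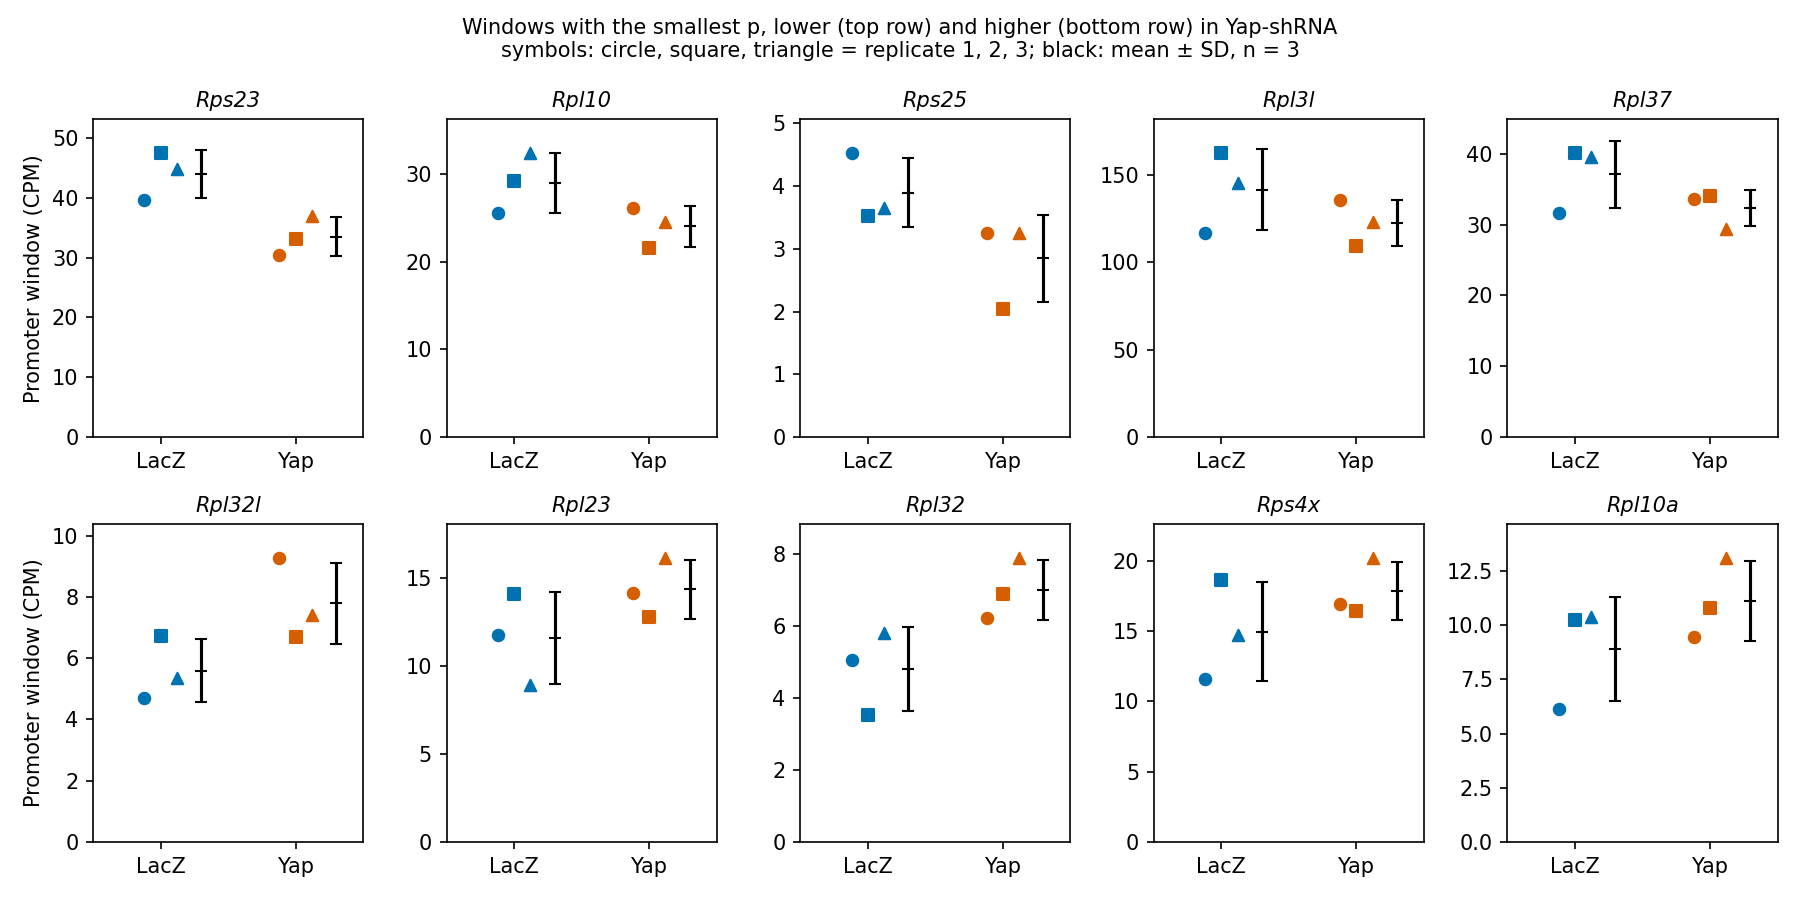
Window CPM in every sample for the 5 RP windows with the smallest p on the lower side (top row) and on the higher side (bottom row), with mean ± SD (n = 3) beside the points and axes starting at 0. The groups are apart only in Rps23, Rps25 and Rpl32, and LacZ-shRNA replicate 1 (circle) is the lowest control in 7 of the 10.

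The stalk proteins and Rps6 stayed near 0 in the fit. Rplp0 held 37.8, 32.2 and 33.1 CPM in Yap-shRNA, inside the range of the controls given above (log2 fold change -0.03, SE 0.15). Rplp1 held 21.2, 29.2 and 29.1 CPM in LacZ-shRNA and 26.0, 23.2 and 28.2 CPM in Yap-shRNA (-0.04, SE 0.15). Rplp2 held 31.1, 47.7 and 43.1 CPM against 40.1, 36.9 and 44.9 CPM (0.01, SE 0.15). For all 3 the 95% interval stayed between -0.33 and 0.30. Rps6 held 23.3, 24.0 and 28.5 CPM against 25.3, 23.1 and 26.4 CPM (-0.04, SE 0.15). Rpsa, which doubles as a laminin receptor, held 12.8, 20.8 and 19.3 CPM against 17.2, 16.6 and 16.3 CPM (-0.06, SE 0.17).

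Peaks gave the same count of calls. edgeR called none of the 74 RP peaks, where 0.618% of all peaks passed, and DESeq2 called none, where 0.502% of the peaks given an adjusted p passed. At an unadjusted p under 0.05 there was 1 RP peak by either tool, a lower one, which is 1.35% against 8.9% of all peaks in edgeR (5.31% lower and 3.59% higher) and 5.22% in DESeq2. The groups did not overlap in 8 RP peaks, 6 higher and 2 lower, which is 10.8% against 13.3% of all peaks (6.55% higher and 6.76% lower). The median log2 fold change was 0.031 against -0.0026 over all peaks, with 42 above 0 and 32 below, and values ran from -0.36 to 0.31.

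The single peak at an unadjusted p under 0.05 was that of Rps23, from 90922573 to 90923616 on chromosome 13. It held 45.5, 50.5 and 46.5 CPM in LacZ-shRNA and 33.8, 36.5 and 40.2 CPM in Yap-shRNA, with no overlap (log2 fold change -0.36, SE 0.13, edgeR p 0.00685, adjusted p 0.280). The peak lies inside the Rps23 window and shares its reads, so the pair of values is 1 observation. The next lower peaks were those of Rpl24, a large-subunit protein, and the inner start of Rpl3l. Rpl24 held 19.2, 19.1 and 21.9 CPM against 16.4, 16.8 and 17.7 CPM, without overlap (-0.26, SE 0.16), in a peak wholly inside the stretch shared with Gm28037, while its window was at -0.04 (SE 0.18). The inner Rpl3l peak went from 116, 138 and 125 CPM to 126, 96.4 and 109 CPM, with overlap (-0.19, SE 0.13).

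On the higher side the peaks with the smallest p were Rps18, Rps15 and Rps28. Rps18 held 35.9, 36.1 and 37.3 CPM in LacZ-shRNA and 40.7, 40.4 and 49.3 CPM in Yap-shRNA (0.25, SE 0.13). Rps15 held 20.8, 28.9 and 28.9 CPM against 33.0, 30.4 and 31.9 CPM (0.27, SE 0.14), and Rps28 15.3, 14.0 and 15.6 CPM against 19.1, 18.6 and 18.4 CPM (0.31, SE 0.17). In all 3 the groups did not overlap, and none passed the adjustment (edgeR adjusted p 0.598, 0.606 and 0.637). The peak of Rps28 lay wholly in the stretch shared with the window of Ndufa7, a subunit of respiratory complex I, and that of Rps18 wholly in stretches shared with B3galt4 and Vps52, so neither peak can be given to the RP gene alone. The windows of these genes had log2 fold changes of 0.17 (SE 0.17) for Rps18, 0.12 (SE 0.15) for Rps15 and, in the other direction, -0.29 (SE 0.41) for Rps28, each with overlap between the groups.

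One library bears on the direction of these values. LacZ-shRNA replicate 1 was the lowest of the 3 controls in 62 of 79 RP windows (78.5%, against 37.7% of all windows) and in 32 of the 35 without overlap. The median of those 35 was 9.97 CPM per kb in that library, 11.7 and 11.8 in LacZ-shRNA replicates 2 and 3, and 11.0, 10.3 and 11.5 in the Yap-shRNA replicates. Windows of olfactory receptor genes, which muscle does not use, moved the other way, with 4.27 CPM per kb in LacZ-shRNA replicate 1, 2.72 and 2.91 in the other controls and 3.16, 3.05 and 2.76 in Yap-shRNA. Summed over their 9 windows, leukocyte markers held 166 to 198 CPM in LacZ-shRNA and 193.5 to 214 CPM in Yap-shRNA, with 6 of 9 windows above 0 in log2 fold change, and 8 of 10 muscle fibre marker windows were below 0. Fibroblast markers summed to 168 to 199.5 CPM over 6 windows in LacZ-shRNA and to 191 to 234 CPM in Yap-shRNA, with 3 of 6 windows above 0. Endothelial markers summed to 100.2 to 112 CPM over 5 windows and to 103 to 110.3 CPM, also with 3 above 0. No marker window passed edgeR's adjustment. An unadjusted p under 0.05 was reached by 2 of 6 fibroblast, 1 of 9 leukocyte and 1 of 5 endothelial windows. None of the 10 muscle fibre and 2 satellite cell windows reached it, and 4.9% of all windows did. Of the 4 marker windows at that p, the collagen genes Col1a1 (0.39, SE 0.14, edgeR p 0.00982, adjusted p 0.946) and Col3a1 (0.34, SE 0.16) were above 0. The leukocyte gene Csf1r was above 0 too (0.32, SE 0.14). The endothelial receptor gene Kdr was below 0 (-0.59, SE 0.17, edgeR p 0.00116, adjusted p 0.909). The groups were apart in all of the 4 but Col3a1. The part of these differences in the RP values was not tested. Without LacZ-shRNA replicate 1, still no RP window passed edgeR's adjustment (lowest adjusted p 0.0874), the median log2 fold change was -0.086 against 0.0036 over all windows, and 10 RP windows had an unadjusted p under 0.05, which is 12.7% against 6.91% of all windows in the same fit. Of the 10, 9 were lower and 1 was higher, where 4.27% of all windows were lower and 2.64% higher. In that fit 157 of all 49366 windows passed the adjustment (0.318%), against 11 with all 6 libraries.

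**Figure D5:**
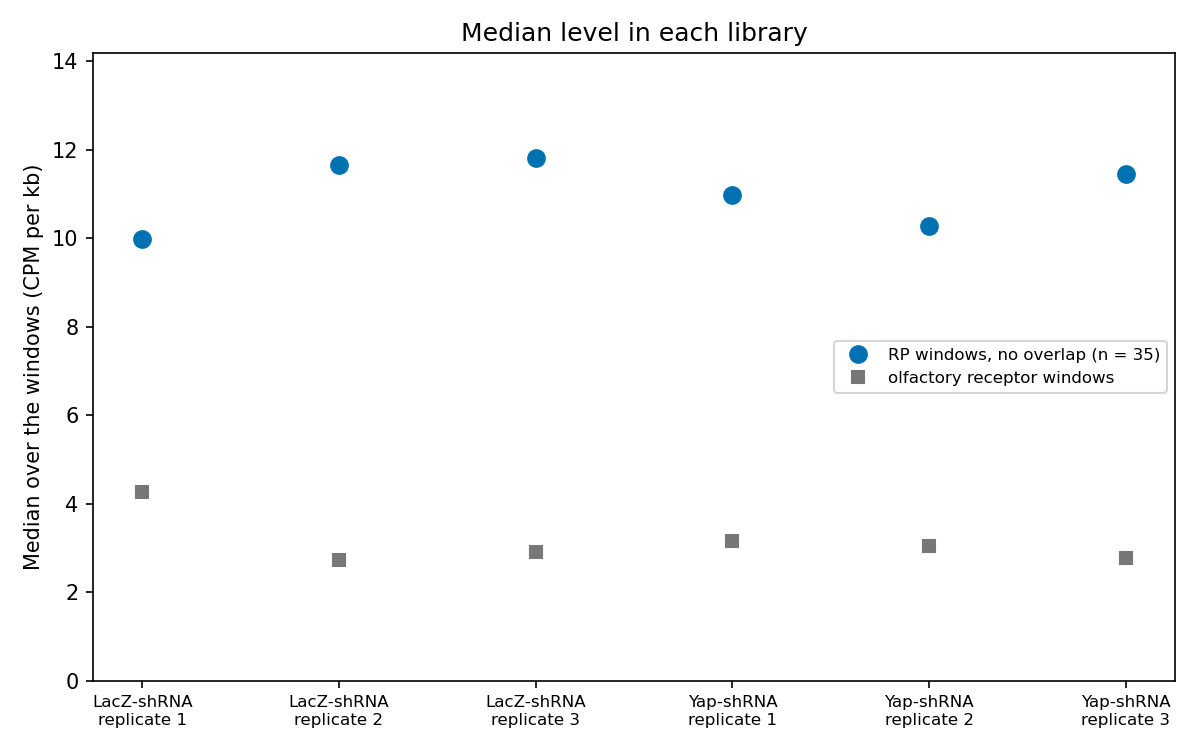
Median CPM per kb in each library over the 35 RP windows without overlap (circles) and over olfactory receptor windows (squares), with the axis starting at 0. LacZ-shRNA replicate 1 has the lowest RP median, 9.97, and the highest olfactory receptor median, 4.27.

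Genes that make or regulate ribosomes were described with the same fit, and none of their windows passed the adjustment. Of the RP genes that the symbol rule does not take in, 6 of 8 had a window, 5 above 0 and 1 below, with a median log2 fold change of 0.17. Other TOP mRNA genes (14 windows) had a median of -0.068, with 6 above 0 and 8 below. Ribosome assembly factors (19 windows) had a median of 0.061, with 14 above 0 and 5 below. RNA polymerase I genes (13 windows) had a median of 0.12, and regulators of TOP mRNA translation (10 windows) one of -0.044. Mitochondrial RP genes (64 windows) had a median of 0.056, with 41 above 0, and proteasome genes (37 windows) one of 0.028. At an unadjusted edgeR p under 0.05, the lists of RP genes outside the rule and of ribosome assembly factors each held 1 higher window. So did those of mitochondrial RP and proteasome genes. The regulators of TOP mRNA translation held 1 lower window, and the other TOP mRNA and RNA polymerase I genes none. The share over all windows was 4.9%. The RP gene was Rps27rt, with overlap between the groups (log2 fold change 0.42, SE 0.20, edgeR p 0.0454, adjusted p 0.946). Rpf2, which brings 5S RNA into the large subunit, held 21.5, 26.0 and 26.3 CPM against 28.4, 31.1 and 32.3 CPM, with no overlap (0.32, SE 0.15, edgeR adjusted p 0.946), and Larp4b, an mRNA-binding protein of the LARP family, held 78.0, 91.3 and 100.2 CPM against 74.5, 71.6 and 76.0 CPM, also with no overlap (-0.28, SE 0.13, edgeR adjusted p 0.946).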

How the data were processed

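The authors deposited raw read counts for ATAC-seq peaks and for windows around transcript starts, 3 samples a group. Per the labels, reads were mapped to GRCm38 with BWA 0.7.17, handled with SAMtools 1.8, peaks were called with MACS 1.4.2-1 and counts made with featureCounts 1.5.0. The authors removed rows with a mean count under 10. Windows were rebuilt from the GENCODE vM21 annotation of the same build, in which all 49366 window identifiers were found. Neither the window extent nor the treatment of reads in shared stretches is stated in full.

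Counts were tested as deposited with edgeR 4.0.16 in R 4.3.3 (quasi-likelihood, TMM factors, no covariate) over all 49366 windows and all 36097 peaks, Benjamini-Hochberg adjusted at 0.05. CPM uses TMM library sizes within each table, and intervals are the log2 fold change ± 1.96 SE. P-values measure the spread between pools. Counts of any replicate pair disagreed beyond sampling noise (chi-square of at least 1.95 per feature). Simulated data held 200 changed features, drawn from rows with a mean count of at least 50. At a log2 change of 1, edgeR recovered 84.5% of windows and 96.0% of peaks, with 7 and 12 false calls. At 0.5 it recovered 8.5% and 20.5%, with 2 and 5 false calls.

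Named genes were the 5 with the smallest p in each direction, the 5 highest and 5 lowest by control CPM per kb, 5 paralogs with their partners, the stalk proteins, Rpsa and Rps6, and for peaks the 3 with the smallest p in each direction. A few genes named by it were left out of the text. The members, lists and naming rule were chosen with earlier results of these data known. Motif strings were exact. The fits were repeated with edgeR's likelihood-ratio test, DESeq2 1.42.0, other scalings, a mean count of at least 50, a replicate block and each sample left out. Promoters on chromosome 18 were left out when start sequences were prepared for printing. For 22 of the genes the RefSeq table held no promoter on any chromosome. Figures were drawn with matplotlib.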

Additional observations from a re-analysis of the deposited data

How the results depend on the processing

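The count of 0 RP windows and 0 RP peaks past the threshold stood under every alternative run: the likelihood-ratio test, DESeq2, library size alone, RLE factors, a mean count of at least 50, and each of the 6 samples left out. Library size alone in place of TMM shifted the median of all windows from -0.014 to 0.046 and of all peaks from -0.0026 to 0.14, and with it the RP medians to 0.073 and 0.17. The RP window median stayed within the spread between libraries (SD 0.17) throughout, and leaving out 1 sample gave -0.086 to 0.074. The RP peak median, examined under alternatives chosen after seeing the data, was -0.030 without LacZ-shRNA replicate 1 and 0.091 without LacZ-shRNA replicate 3. Both values lay further from the 0.031 of the main fit than the spread between libraries for peaks (SD 0.057). So did the 0.17 with library size alone. RP windows at an unadjusted p under 0.05 numbered 2 (2.53% against 4.90% of all windows) and 0 to 10 with 1 sample left out. They were 10 (12.7% against 6.91%) without LacZ-shRNA replicate 1, 4 (5.06% against 9.17%) without LacZ-shRNA replicate 2, 4, of which 3 higher (5.06% against 6.01%), with library size alone and 3 of 61 (4.92% against 5.31%) at a mean count of at least 50. RP peaks at that p numbered 1 (1.35% against 8.90% of all peaks). They were 5, of which 4 higher, without LacZ-shRNA replicate 3 (6.76% against 13.8%) and at a mean count of at least 50 (6.76% against 12.7%), and 9, all higher, with library size alone (12.2% against 13.3%, with 11.4% of all peaks higher). Of all these fits, only that of windows without LacZ-shRNA replicate 1 gave the RP genes a larger share than all features.

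No paired design was assumed, because the labels tie no numbers to animals and same-numbered samples did not deviate together in all pairs for windows (correlations 0.17, -0.17 and 0.086) or in peaks (0.011, -0.18 and -0.20), while samples of other numbers reached 0.24 and 0.20. With the replicate block, 0 RP windows and 0 RP peaks passed, and the RP window median was 0.0074.

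No named window or peak was called under any alternative. Leaving out 1 sample turned the sign in 10 of the 26 named windows, all with a log2 fold change within its SE of 0, with values from -0.15 to 0.28 for Rpl30, -0.12 to 0.11 for Rpl39l, -0.20 to 0.045 for Rpl7a, -0.19 to 0.12 for Rplp0, -0.18 to 0.064 for Rplp1, -0.15 to 0.11 for Rplp2, -0.0067 to 0.24 for Rps27l, -0.55 to 0.0044 for Rps29, -0.11 to 0.074 for Rps6 and -0.25 to 0.044 for Rpsa. Library size alone turned the sign of Rplp0 (0.039), Rplp1 (0.025), Rps6 (0.021) and Rpsa (0.00022). The other alternatives turned no sign.

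The control level of RP windows depended on the windows taken. The median was 5.12 CPM per kb over all 79 and 11.2 over those that overlap no other, and 20.8 CPM per window when not divided by length. Leaving out 1 control gave 5.33 to 5.62 CPM per kb.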

Other observations

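Of the 79 RP genes, 9 had no peak over a start: Rpl8, Rpl18, Rpl36, Rps4x, the testis paralogs Rpl10l and Rpl39l, and the pseudogenes Rpl6l, Rpl32l and Rps4l. They fell into unlike groups by window level. Rpl8, a large-subunit protein near the peptidyl-transferase centre, held 24.2, 26.0 and 24.5 CPM in the LacZ-shRNA window (11.2 CPM per kb) and Rpl36 held 21.7, 28.2 and 31.1 CPM (13.5 CPM per kb). Both windows were above the 90th percentile of all windows and overlapped no other, so the absence of a peak over these starts went with a level like that of RP genes with a peak. The 3 pseudogenes ranged from 2.80 to 5.12 CPM per kb.

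The 4 X-linked RP genes, Rpl10, Rpl36a, Rpl39 and Rps4x, had a median of 5.47 CPM per kb in these male animals. Among them the Rpl10 window, at 9.59 CPM per kb, overlaps another. Without overlap, Rps4x was at 3.68, Rpl36a at 3.93 and Rpl39 at 7.02 CPM per kb. Rpl36a held the lowest CPM of the 3 with a peak, 10.6, followed by Rpl39 with 14.0 and Rpl10 with 35.7. The 26 autosomal RP windows without overlap, with paralogs and pseudogenes left aside, had a median of 12.1 CPM per kb. Over all protein-coding windows without overlap the medians were 2.65 on the X chromosome (709 windows) and 6.60 on the autosomes (13848 windows). No test was made of either difference.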
